A study of Homo sapiens with 9 samples.

Results

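The miR-23/27/24 hairpins lie in a pair of paralogous clusters, 1 holding hsa-mir-23a, hsa-mir-27a and hsa-mir-24-2 (the a cluster) and 1 holding hsa-mir-23b, hsa-mir-27b and hsa-mir-24-1 (the b cluster). They were taken by name from a count table, which held all 6 of them among 1485 hairpins. Names are written below without the species prefix. The table holds small RNA sequencing of 9 libraries from 2 human cell lines: HEK293E, derived from HEK293 embryonic kidney cells, and K562, a leukaemia line with erythroid features. The libraries were made after siRNA transfection against ERH, a small nuclear protein that binds the Microprocessor subunit DGCR8, or after control siRNAs. In HEK293E, replicates 1 and 2 each had siGFP, siControl and siERH-3 libraries, replicate 2 also had siERH-5, and cells were transfected on days 0 and 3 and harvested on day 5. K562 cells received siGFP or siERH-5 once, in 1 library each, and were harvested 4 days later. The labels place both K562 libraries in experimental group 3, apart from the HEK293E libraries. In what follows, control means siGFP and siControl together (4 HEK293E libraries), and siERH means siERH-3 and siERH-5 together (3 HEK293E libraries). The siRNA target of siControl is not given in the labels.

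A miRNA hairpin is cut from a longer primary transcript by Microprocessor, the complex of the nuclease DROSHA and DGCR8, and then cut by DICER into a short duplex, of which 1 arm usually becomes the mature miRNA. Hairpins of a cluster can share a primary transcript and still differ in mature level, because hairpins can differ in how well they are cut and mature miRNAs in how fast they are degraded. The seed, the stretch near the 5′ end that pairs with target mRNAs, is the same in the a and b copies of miR-23, of miR-27 and of miR-24. miR-23 is known for targeting glutaminase mRNA, miR-27 for restraining fat cell differentiation and lipid genes, and miR-24 for restraining cell cycle genes.

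In RefSeq's annotation of GRCh38.p14, the a cluster spans chr19:13836287-13836659 on the minus strand, 373 nt in all, with 69 nt between mir-23a and mir-27a and 80 nt between mir-27a and mir-24-2. GENCODE release 29 places all 3 of its hairpins inside an exon of a long noncoding RNA, AC020916.1. The b cluster spans chr9:95085208-95086088 on the plus strand, 881 nt, with 140 nt between mir-23b and mir-27b and 479 nt between mir-27b and mir-24-1. Its hairpins lie in the protein-coding gene C9orf3. mir-23b and mir-27b are intronic there, and mir-24-1 lies within an exon of a transcript annotated as subject to nonsense-mediated decay. RefSeq holds all 6 members. The mature sequences are shown to make plain how alike the copies are, written 5′ to 3′ with the seed (bases 2 to 8) in capitals:
hsa-miR-23a-3p: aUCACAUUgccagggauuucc
hsa-miR-23b-3p: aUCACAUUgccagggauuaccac
hsa-miR-27a-3p: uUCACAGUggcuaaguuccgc
hsa-miR-27b-3p: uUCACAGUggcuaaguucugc
hsa-miR-24-3p, from both mir-24-1 and mir-24-2: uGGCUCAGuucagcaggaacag
hsa-miR-24-1-5p: uGCCUACUgagcugauaucagu
hsa-miR-24-2-5p: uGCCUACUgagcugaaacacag

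Counted from the 5′ end, miR-23a-3p and miR-23b-3p are identical over the first 18 bases and differ by U19A over the 21 positions they share, after which miR-23b-3p runs 2 bases longer. miR-27a-3p and miR-27b-3p are also identical over 18 bases and differ by C19U. Their copies are therefore told apart by bases near the 3′ end. The libraries held fragments of 18 to 30 nt, and a read that ends before base 19 fits both copies, so the miR-23 and miR-27 shares below can depend on how such reads were assigned. The miR-24-3p arm is identical in mir-24-1 and mir-24-2. Only their 5p arms differ, at 6 positions. The table counts hairpins, so arms were not separated, and the handling of reads that fit more than 1 hairpin is not given in the sources used here. The counts of mir-24-1 were 0.966 to 1.03 times those of mir-24-2 in all 9 libraries, so these 2 hairpins are read below as 1 measurement.

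The hairpins of the miR-27 pair, whose ratio differed most between siERH and control among the pairs, differ more than their mature sequences do. They are printed with both annotated arms in capitals, the 5p arm first:
hsa-mir-27a: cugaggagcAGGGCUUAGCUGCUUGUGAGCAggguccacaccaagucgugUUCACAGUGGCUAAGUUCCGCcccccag
hsa-mir-27b: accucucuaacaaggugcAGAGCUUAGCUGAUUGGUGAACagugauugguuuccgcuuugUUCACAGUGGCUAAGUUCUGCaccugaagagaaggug

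The mir-27a hairpin is 78 nt long with a GC content of 60.3%, and the mir-27b hairpin is 97 nt long with 47.4%. Predicted folding energies per nucleotide were -0.485 kcal/mol for mir-27a and -0.509 kcal/mol for mir-27b. Across the 6 members GC content ran from 47.4% in mir-27b to 60.3% in mir-27a, and each a copy had a higher GC content than its b copy. The median over 1560 RefSeq hairpins was 52.1%.

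The libraries held 2609929 to 3320017 hairpin counts, and every member had at least 1253 counts in every library. Each library is a bulk RNA sample, in which a miRNA present in fewer cells and less of it per cell cannot be told apart. Nothing in the labels says whether replicates were separate cultures, so p-values measure the spread between these libraries, which may be technical. The cell line labels were checked against marker hairpins. Of 6 blood hairpins, 5 were above every HEK293E control library in the K562 siGFP library, where mir-155 was at 0 counts. The summed blood list stood at 1156 to 1660 counts per 1e+06 hairpin counts (CPM) in HEK293E controls and 1.3e+05 in K562. All 5 hairpins listed as kidney or embryonic were lower in K562 siGFP, with a summed level of 6653 to 9010 CPM in HEK293E controls and 1037 in K562. The HEK293E sum was mostly mir-10b, at 3633 to 5980 CPM, and mir-9-1, at 2602 to 2970. The gap was small for mir-200c, at 115 to 191 CPM in HEK293E controls and 92.6 in K562. Between siERH and control in HEK293E, 1 of 5 tested blood hairpins was called lower (mir-486-1) and 1 higher (mir-142). Of the 5 kidney or embryonic hairpins 1 was called lower (mir-200b). Over all 773 hairpins tested, 16.2% were called lower and 23.8% higher. With the replicate number as a block, 2 of the 5 kidney or embryonic hairpins were called lower, mir-9-1 being added (edgeR adjusted p = 0.0166, against 0.0975). The block called 159 of the 773 hairpins lower. ERH mRNA is not read by small RNA sequencing, so the knockdown itself was not checked here.

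In HEK293E control cells the b copies of miR-23 and miR-27 had more counts than the a copies. mir-23b and mir-27b together held 18483 to 25672 counts in the 4 control libraries, and mir-23a and mir-27a together 5074 to 9405, a ratio of 2.73 to 3.64 within a library. The share of miR-24 that each cluster supplied cannot be told apart. Mature miRNAs of the members are 21 to 23 nt long, so their levels were set side by side as CPM on TMM-scaled libraries (a scaling by edgeR that makes the bulk of hairpins comparable) with no length correction. mir-27b had the highest mean level, 5028 ± 614 CPM (SD, n = 4). It was followed by mir-24-1 at 4500 ± 668, mir-24-2 at 4402 ± 668, mir-23b at 2583 ± 1483, mir-27a at 1523 ± 370 and mir-23a at 971 ± 590 CPM. Each neighbouring pair in this order overlapped in range over the 4 libraries. Within each control library, mir-23a nevertheless had the fewest counts of the 6, and mir-27b the most.

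The miR-23 copies differed most between the replicates of the control cells. mir-23a averaged 3.00 times and mir-23b 2.85 times as much in the replicate 2 controls as in the replicate 1 controls. The ratio was 1.48 for mir-27a, 1.28 for mir-24-2, 1.27 for mir-24-1 and 1.22 for mir-27b. Values are therefore given by replicate below, and in HEK293E the replicate number also marks the experimental group in the labels.

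In both the miR-27 and the miR-23 pair, the copy from the a cluster made up a larger share in every siERH library of HEK293E than in any control library. How often the arms separate for other pairs of copies was not computed. Separation was common in this comparison, at 44.6% of all 773 hairpins and 33.7% of 101 other neighbouring pairs. mir-27a made up 20.4% and 22.0% of the mir-27a and mir-27b counts in the siGFP and siControl libraries of replicate 1, and 23.8% and 25.7% in those of replicate 2. In the siERH-3 libraries it made up 34.1% in replicate 1 and 37.4% in replicate 2, and in the siERH-5 library 36.6%. The 3 siERH libraries all lay above the 4 controls. The highest control had a 95% Wilson interval of 25.1% to 26.3%, and the lowest siERH library 1 of 33.4% to 34.8%. Such intervals cover counting error within a library and not the spread between libraries. The log2 ratio of mir-27a to mir-27b went from -1.75 ± 0.19 (SD, n = 4) to -0.83 ± 0.11 (SD, n = 3), a difference of 0.92, or 1.89-fold. It was 0.94 within replicate 1 and 0.84 within replicate 2.

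mir-23a and mir-23b followed the same course. mir-23a held 25.7% and 27.1% of the pair in the siGFP and siControl libraries of replicate 1 and 26.8% and 28.2% in replicate 2. With siERH-3 it held 36.5% in replicate 1 and 39.0% in replicate 2, and with siERH-5 it held 41.4%. Again no siERH library fell within the range of the controls. The log2 ratio of mir-23a to mir-23b went from -1.44 ± 0.07 (SD, n = 4) to -0.65 ± 0.15 (SD, n = 3), a difference of 0.79, or 1.73-fold, and it was 0.68 within replicate 1 and 0.82 within replicate 2. The 3-fold spread in miR-23 level between replicates was thus shared by both copies, while their proportion differed by less than 3 percentage points among the 4 control libraries.

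**Figure D1:**
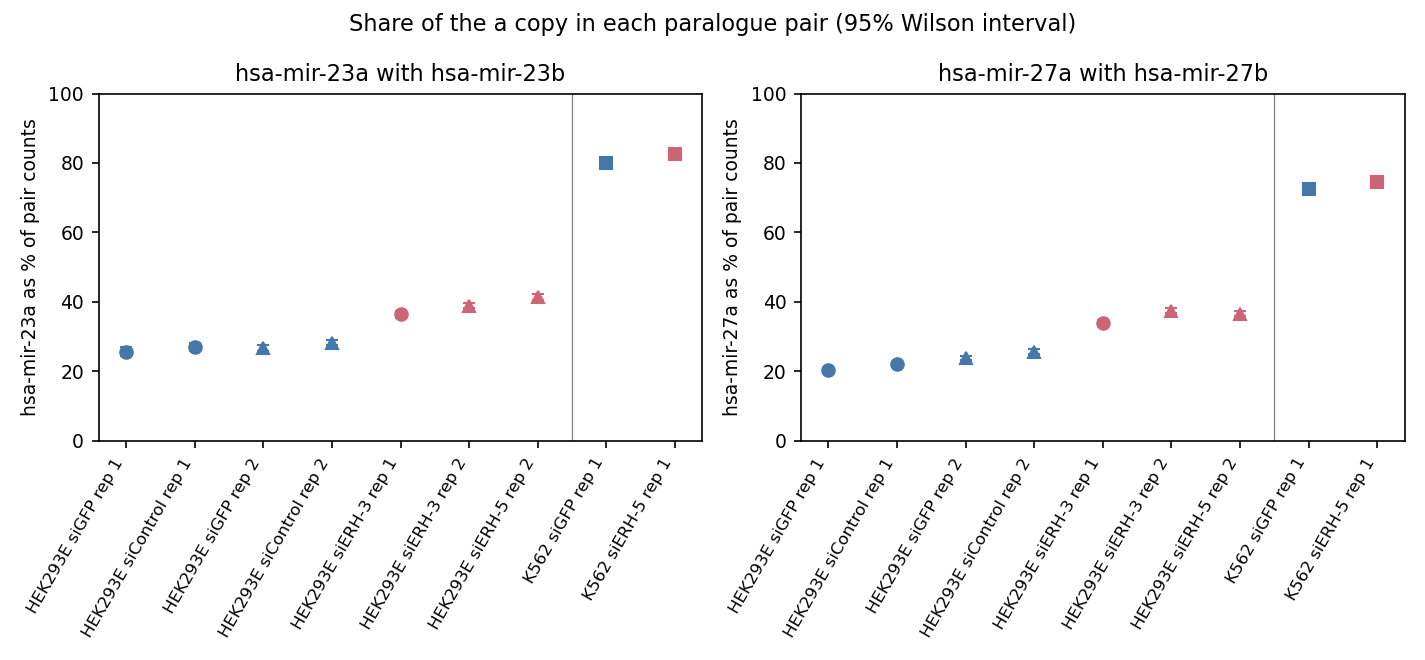
Counts of the a copy as a percentage of the a and b copies together (y axis) in each of the 9 libraries (x axis), for mir-23a with mir-23b and mir-27a with mir-27b. Blue marks control and red siERH libraries, circles replicate 1 and triangles replicate 2 of HEK293E, squares K562, and bars are 95% Wilson intervals. The 3 HEK293E siERH libraries lie at 36.5% to 41.4% for mir-23a and 34.1% to 37.4% for mir-27a, above all 4 controls, and K562 lies above 70% in both pairs.

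For each of these ratios the two-sided exact permutation test over libraries (35 arrangements) gave p = 0.0286, the smallest it can give, and p = 0.0643 after Benjamini-Hochberg adjustment over the 9 member ratios tested, which misses 0.05. With the replicate number kept as a block the test has 18 arrangements and cannot go below 0.0556, the value both ratios took. For mir-24-1 against mir-24-2, which share reads, the log2 ratio was 0.032 ± 0.008 (SD) over the 4 controls and 0.013 ± 0.003 (SD) over the 3 siERH libraries. This difference of -0.019, or 1.01-fold, also separated the arms and had the same exact permutation p of 0.0286.

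Among single members, mir-27b fell. Its level was 4246 CPM with siGFP and 4837 with siControl in replicate 1, and 5451 and 5580 in replicate 2. It was 3367 CPM with siERH-3 in replicate 1, 3557 with siERH-3 in replicate 2 and 3250 with siERH-5. All 3 siERH libraries were below all 4 controls, with means of 5028 ± 614 CPM (SD, n = 4) and 3391 ± 155 CPM (SD, n = 3). The log2 fold change was -0.57 ± 0.15 (SE), with an adjusted p of 0.0128 in edgeR's quasi-likelihood test over 773 hairpins, where the adjusted p is by Benjamini-Hochberg and a call needs a value under 0.05. On library totals it stood at -0.37 (edgeR adjusted p = 0.0342). The call was lost when the siERH-5 library was left out (-0.53, edgeR adjusted p = 0.061), and over the 18 fits run the adjusted p ranged from 0.000494 to 0.061.

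mir-27a, its copy from the a cluster, had 1091 CPM with siGFP and 1367 with siControl in replicate 1 and 1703 and 1932 in replicate 2. With siERH-3 it had 1740 CPM in replicate 1 and 2128 in replicate 2, and with siERH-5 it had 1876. The arms overlapped, since the siControl library of replicate 2 exceeded 2 of the 3 siERH libraries. Its log2 change of 0.33 ± 0.20 (SE) missed the threshold (edgeR adjusted p = 0.22). With the replicate block it was 0.29 ± 0.14 (SE) and also missed it (edgeR adjusted p = 0.112). On plain library totals, however, it was 0.54 with the arms apart (edgeR adjusted p = 0.0249). That fit called 212 of all hairpins higher and 67 lower. The adjusted p of mir-27a ranged from 0.00859 to 0.488 over the 18 fits. Both copies summed to 6552 ± 980 CPM (SD) over the 4 controls and to 5306 ± 328 CPM (SD) over the 3 siERH libraries. On library totals the sums were 6148 ± 382 and 5716 ± 249 CPM, and the ranges of the arms overlapped under both scalings.

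mir-23a had 358 CPM with siGFP and 613 with siControl in replicate 1 and 1273 and 1641 in replicate 2. With siERH-3 it had 1055 CPM in replicate 1 and 1517 in replicate 2, and with siERH-5 1448. The siERH values of replicate 2 sat between those of the 2 controls of that replicate, and only the siERH-3 library of replicate 1 lay above its own controls, by 1.12 on the log2 scale. Over all 7 libraries the log2 change of 0.47 ± 0.42 (SE) missed the threshold (edgeR adjusted p = 0.401). With the replicate block it was 0.48 ± 0.23 (SE) and also missed it (edgeR adjusted p = 0.101). It was 0.07 in the replicate 2 libraries alone, 0.19 without the siGFP library of replicate 1, 0.29 without the siControl library of replicate 1 and 0.83 without the siControl library of replicate 2.

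mir-23b lay above its controls in replicate 1 and below them in replicate 2. In replicate 1 it had 1032 CPM with siGFP, 1652 with siControl and 1840 with siERH-3. In replicate 2 it had 3474 CPM with siGFP and 4173 with siControl, against 2374 with siERH-3 and 2053 with siERH-5. Against the mean of its own controls, siERH-3 was higher by 0.46 on the log2 scale in replicate 1, and in replicate 2 siERH-3 differed by -0.69 and siERH-5 by -0.90. Pooled, it stood at -0.31 ± 0.39 (SE; edgeR adjusted p = 0.569), and limma on the deposited RPM turned this to 0.09. With the replicate block it was -0.27 ± 0.23 (SE; edgeR adjusted p = 0.361). A fit to the replicate 2 libraries alone called it lower (-0.74, edgeR adjusted p = 0.0015), where 99 of all hairpins were called lower and 182 higher. The adjusted p of mir-23b ranged from 0.0015 to 0.976 over the 18 fits.

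No change was detected in the shared miR-24 measurement. mir-24-2 had 3609 CPM with siGFP and 4122 with siControl in replicate 1, and 5108 and 4769 in replicate 2. Its level was 3739 CPM with siERH-3 in replicate 1, 4075 with siERH-3 in replicate 2 and 3968 with siERH-5, all within the range of the controls. On the log2 scale mir-24-2 stood at -0.16 ± 0.16 (SE; edgeR adjusted p = 0.432) and mir-24-1 at -0.18 ± 0.16 (SE; edgeR adjusted p = 0.38), and on library totals both turned positive, to 0.03 and 0.01.

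**Figure D2:**
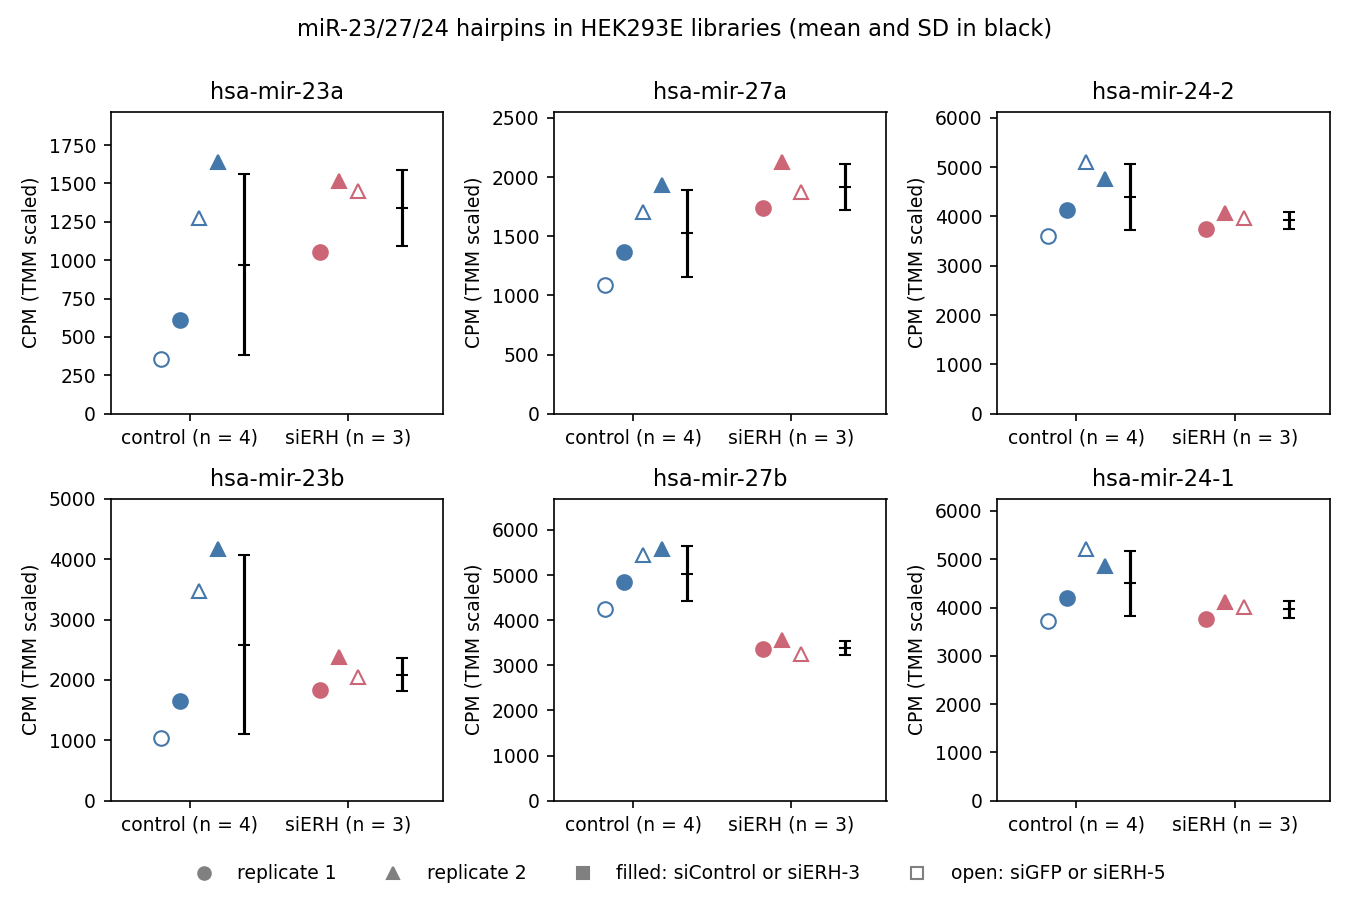
Level of each member in CPM on TMM-scaled libraries (y axis, from 0) in the 4 control and 3 siERH libraries of HEK293E (x axis). Circles are replicate 1 and triangles replicate 2, filled symbols are siControl or siERH-3 and open ones siGFP or siERH-5, and black marks give the mean and SD of each arm. Only mir-27b has all siERH libraries, at 3250 to 3557 CPM, below all controls, at 4246 to 5580 CPM.

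In all, 1 of 6 members was called lower and 0 higher. By the same edgeR test 40% of all 773 hairpins were called, 16.2% of them lower and 23.8% higher, so the count for the members is not above that of hairpins in general. Of the 6 members only mir-27b had an unadjusted p under 0.05, and DESeq2 also called 1 lower and 0 higher. The arms did not overlap for 1 of 6 members and for 44.6% of all hairpins (19.1% lower, 25.5% higher). The median log2 fold change was -0.17 over the members and -0.01 over all hairpins, whose quartiles were -0.40 and 0.68. On library totals the median of all hairpins moved to 0.19. Relative to the median under each scaling, mir-27b stood at -0.56 and -0.56, mir-27a at 0.34 and 0.35, mir-23a at 0.48 and 0.52, mir-23b at -0.30 and -0.26, and mir-24-2 at -0.15 and -0.16.

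GC content moved with the changes of hairpins in general. The median log2 fold change was 0.65 in hairpins below 45.1% GC, -0.08 between that and 57.3% GC, and -0.17 above, in bins of equal size. In the miR-23 and miR-27 pairs the GC-richer a copies were higher relative to the b copies. Removing a trend that favours GC-poor hairpins raises the GC-richer copy of a pair relative to the other. The larger differences that follow are therefore no test of GC content, and the cause was not tested. With a GC trend removed from each library, mir-27b was at -0.61 (edgeR adjusted p = 0.00597), and the log2 ratio of the a to the b copy differed by 1.23 for miR-27 and 0.94 for miR-23. With both the GC trend removed and the replicate block, mir-27a was called higher at 0.53 (edgeR adjusted p = 0.00859) and mir-23a at 0.70 (edgeR adjusted p = 0.0278), beside mir-27b lower at -0.63 (edgeR adjusted p = 0.000987). That made 2 of 6 members higher and 1 lower, where 28.2% of all hairpins were called higher and 19.3% lower. This check was chosen after the data had been seen.

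Neighbours within a cluster were compared next by the ratio of their counts in the same library, which does not depend on how libraries are scaled. In the a cluster mir-27a was more abundant relative to mir-24-2 in every siERH library than in any control. There were 0.302 and 0.332 counts of mir-27a per count of mir-24-2 with siGFP and siControl in replicate 1, and 0.333 and 0.405 in replicate 2. With siERH-3 there were 0.465 in replicate 1 and 0.522 in replicate 2, and with siERH-5 0.473. The arms did not overlap, and the log2 ratio differed by 0.51 (exact permutation p = 0.0571, adjusted p = 0.103 over 9 ratios). The difference was 0.56 in replicate 1 and 0.44 in replicate 2. With mir-24-2 counted to the a cluster, the share of that cluster taken by mir-27a went from 22.1% ± 0.924 (SD, n = 4) to 26.6% ± 0.919 (SD, n = 3).

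In the b cluster mir-27b was less abundant relative to mir-24-1 in every siERH library than in any control. There were 1.14 and 1.15 counts of mir-27b per count of mir-24-1 with siGFP and siControl in replicate 1, and 1.05 and 1.15 in replicate 2. With siERH-3 there were 0.894 in replicate 1 and 0.865 in replicate 2, and with siERH-5 0.810. mir-27b thus outnumbered mir-24-1 in every control library and in no siERH library. The log2 ratio differed by -0.39 (exact permutation p = 0.0286, adjusted p = 0.0643 over 9 ratios), with -0.36 in replicate 1 and -0.39 in replicate 2. Because mir-24-1 and mir-24-2 share reads, the partner in these 2 ratios is in effect the same measurement, and the miR-24 term may hold reads from both clusters.

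Of the neighbour and end ratios that involve miR-23, 3 had different signs in the 2 replicates, and their arms overlapped. mir-23a to mir-27a ran from 0.328 with siGFP in replicate 1 to 0.849 with siControl in replicate 2, and the 3 siERH libraries, at 0.606, 0.713 and 0.772, lay inside that range. The log2 difference of 0.33 (exact permutation p = 0.457) was 0.66 in replicate 1 and -0.10 in replicate 2. mir-23b to mir-27b ran from 0.243 to 0.748 in controls and from 0.547 to 0.667 in siERH libraries. Its log2 difference of 0.46 (exact permutation p = 0.4) was 0.92 in replicate 1 and -0.09 in replicate 2. The ratio between the ends of the b cluster, mir-23b to mir-24-1, differed by 0.07 (exact permutation p = 0.914), with 0.56 in replicate 1 and -0.48 in replicate 2. With the siGFP library of replicate 1 left out, the differences were 0.077 for mir-23a to mir-27a, 0.17 for mir-23b to mir-27b and -0.21 for mir-23b to mir-24-1. With the siControl library of replicate 2 left out, they were 0.53, 0.71 and 0.33.

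The ratio between the ends of the a cluster, mir-23a to mir-24-2, was higher in every siERH library than in both controls of the same replicate. There were 0.0992 and 0.149 counts of mir-23a per count of mir-24-2 with siGFP and siControl in replicate 1, and 0.282 with siERH-3. In replicate 2 there were 0.249 and 0.344 in the controls, 0.372 with siERH-3 and 0.365 with siERH-5. The arms overlapped when pooled over replicates, and the log2 difference was 0.84 (exact permutation p = 0.143). It was 1.22 in replicate 1 and 0.33 in replicate 2. With the replicate block it was 0.69, with an exact permutation p of 0.0556, the smallest that design allows. It was 0.53 without the siGFP library of replicate 1 and 1.13 without the siControl library of replicate 2.

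**Figure D3:**
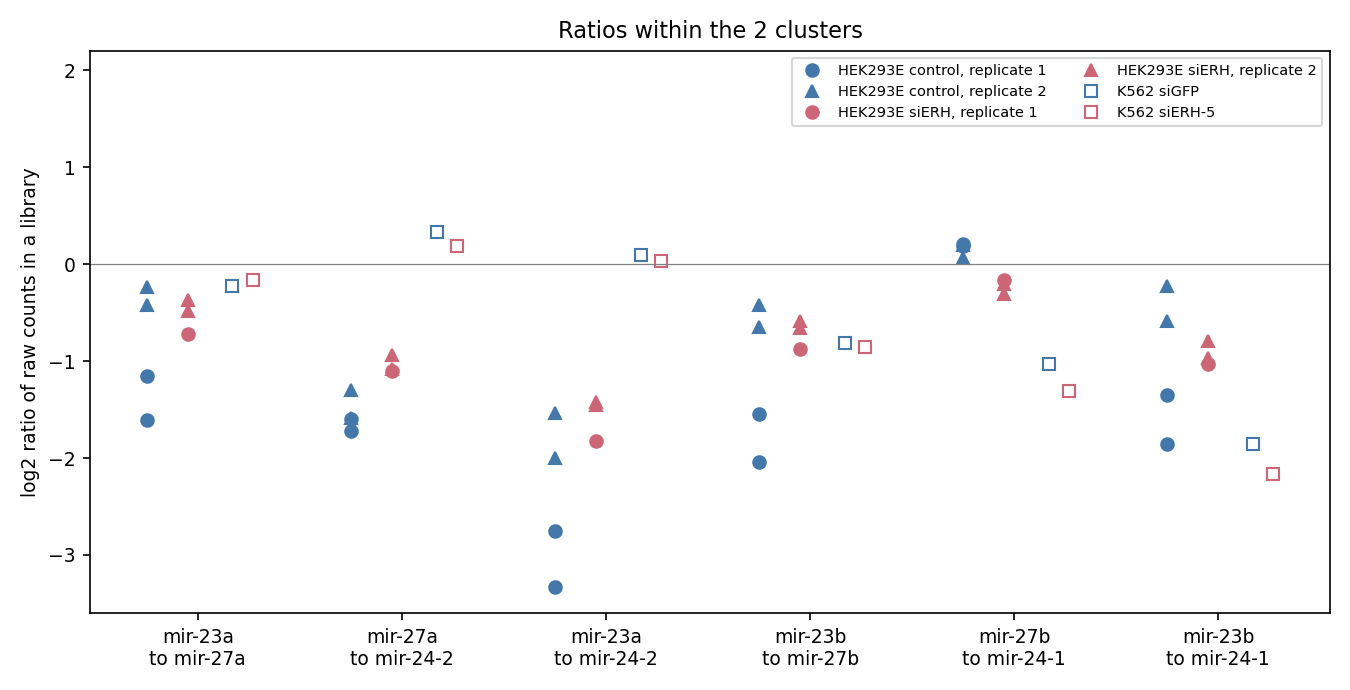
Log2 ratio of raw counts within a library (y axis) for the 6 pairs of hairpins inside the clusters (x axis). Filled blue symbols are HEK293E controls and filled red ones HEK293E siERH, circles replicate 1 and triangles replicate 2, and open squares are K562. The arms of HEK293E separate for mir-27a to mir-24-2, by 0.51, and for mir-27b to mir-24-1, by -0.39, and those of the ratios with miR-23 overlap.

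Of the 4 neighbour ratios, 2 did not overlap between arms. The same held for 34 of 101 other neighbouring pairs of hairpins on 1 strand within 10 kb (33.7%), so separated neighbours were common in this comparison. The median size of the difference over those other pairs was 0.42 on the log2 scale. They needed a mean of only 10 counts per hairpin, while every member had at least 1253 counts in every library. Some of them join copies of 1 hairpin, such as mir-515-1 and mir-515-2, whose difference was 0. The other pairs are therefore not matched to the members.

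siERH-3 alone was compared with the same 4 control libraries, which these comparisons share. mir-27b was at -0.53 ± 0.19 (SE) and missed the threshold (edgeR adjusted p = 0.061). With the replicate block it was called at -0.52 (edgeR adjusted p = 0.0121), and DESeq2 called it too (adjusted p = 0.0184), within a range of 0.0121 to 0.269 over the 14 fits run. By the unblocked edgeR test 0 of 6 members were called and 1 had an unadjusted p under 0.05, against 30.6% of 759 hairpins called (11.5% lower, 19.1% higher). With the block 1 of 6 was called, against 45.1% of hairpins (18.7% lower, 26.4% higher). Leaving out the siGFP library of replicate 1 also brought the call (edgeR adjusted p = 0.0238). With siERH-3 alone the log2 ratio of the a to the b copy differed by 0.90 for miR-27 and 0.71 for miR-23. The single siERH-5 library lay beside the siERH-3 library of its replicate for all 6 members, with the largest gap for mir-23b, -0.90 against -0.69.

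The control siRNAs were compared with each other as the background. By the unblocked edgeR test 0 of 6 members and 0% of 730 hairpins were called between siControl and siGFP. None of the members had an unadjusted p under 0.05, DESeq2 called 0 of them, and 24 hairpins in all had such a p. With the replicate block, however, mir-23a was called higher in siControl at 0.56 (edgeR adjusted p = 8.29e-05) and mir-23b at 0.46 (edgeR adjusted p = 0.000585), 2 of 6 members. Of all hairpins 18.2% were then called, 9.86% higher and 8.36% lower. Both miR-23 copies had more CPM with siControl than with siGFP in each replicate. The log2 ratio of mir-23a to mir-23b differed by only 0.10 between the control siRNAs in each replicate, and that of mir-27a to mir-27b by 0.14 and 0.15, set against 0.79 and 0.92 between siERH and control.

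In K562 the a copies of miR-23 and miR-27 had more counts than the b copies. mir-23a and mir-27a together held 40769 counts in the siGFP library and mir-23b and mir-27b 12974, a ratio of a to b of 3.14, against 0.275 to 0.366 in HEK293E controls. mir-27a had the most counts, 22010, followed by mir-23a with 18759, mir-24-2 with 17541, mir-24-1 with 16935, mir-27b with 8280 and mir-23b with 4694. mir-23a made up 80.0% of its pair (95% Wilson interval 79.5% to 80.5%) and mir-27a 72.7% (72.2% to 73.2%), where no HEK293E control exceeded 28.2% and 25.7%. The neighbours of the a cluster were also closer in count, with 1.26 counts of mir-27a per count of mir-24-2, against 0.302 to 0.405 in HEK293E controls. mir-27b stood at 0.489 per count of mir-24-1, against 1.05 to 1.15.

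The size of the difference between the lines depended on the scaling, and for the b copies so did its direction. mir-23a was 16.4 times as high in K562 siGFP as in the mean of HEK293E controls on 1 TMM scaling of all 9 libraries, and 8.13 times on library totals. For mir-27a the values were 12.3 and 5.93, for mir-24-2 3.38 and 1.62, and for mir-24-1 3.20 and 1.53. mir-23b was at 1.54 and 0.763 and mir-27b at 1.40 and 0.670, higher in K562 on TMM and lower on library totals. Under both scalings mir-23a, mir-27a, mir-24-2 and mir-24-1 stood above their HEK293E range. There was 1 K562 control library, so the difference between lines has no replicate check and no test.

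**Figure D4:**
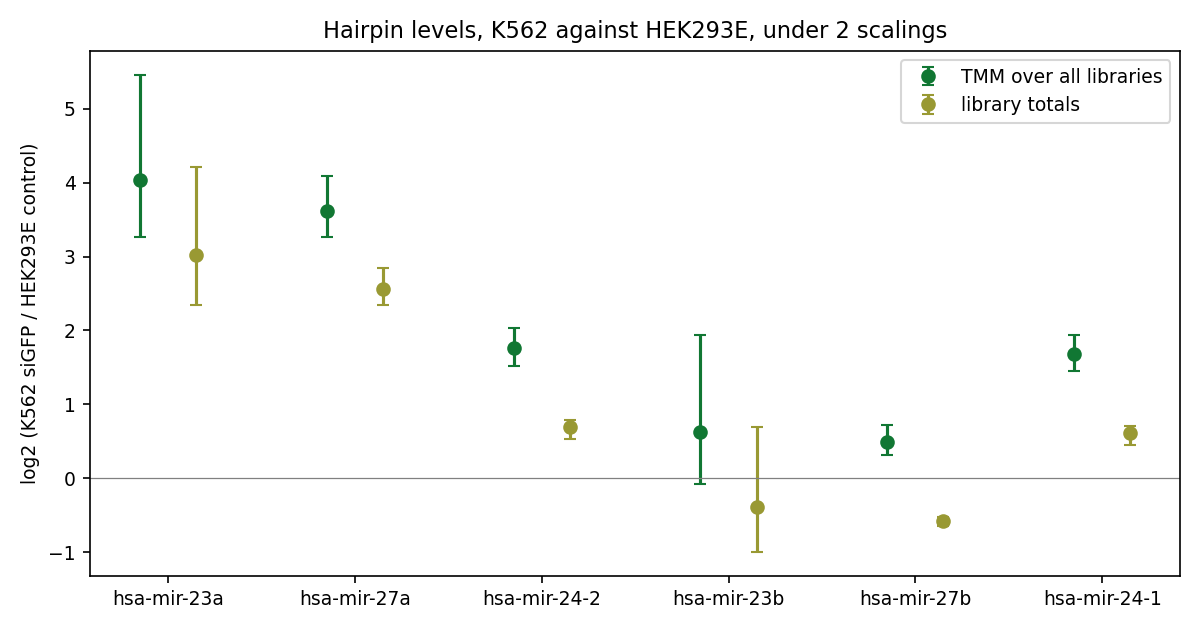
Log2 of the K562 siGFP level over the mean of the 4 HEK293E control libraries (y axis) for each member (x axis), on TMM scaling of all libraries (green) and on library totals (olive). Bars run from the ratio to the highest HEK293E control to the ratio to the lowest, and the points of mir-23b and mir-27b change sign between scalings (0.62 and -0.39, 0.48 and -0.58).

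No member differed by 2-fold between siERH-5 and siGFP in K562. On TMM scaling the log2 ratio of siERH-5 to siGFP, with a pseudocount of 1 CPM, was -0.13 for mir-23a, -0.20 for mir-27a, -0.06 for mir-24-2, -0.37 for mir-23b, -0.34 for mir-27b and -0.06 for mir-24-1. Among 646 hairpins 16.9% differed by at least 2-fold (6.81% lower, 10.1% higher), with a median log2 ratio of 0.11, and 0 of 6 members did. On library totals the median moved to 0.37, and mir-23a, mir-27a and both miR-24 copies turned positive. Relative to the median, all 6 members lay below it under both scalings, from -0.48 for mir-23b to -0.17 for mir-24-1 on TMM. The a copy made up a slightly larger share with siERH-5, 82.5% (82.1% to 83.0%) for mir-23a and 74.5% (74.1% to 74.9%) for mir-27a, a log2 change of 0.24 and 0.14 against 0.79 and 0.92 in HEK293E. These intervals cover counting error alone, and whether the change differs between lines was not tested, since K562 has 1 library per siRNA. The siRNAs compared, the number of transfections, the harvest day and the experimental group also differed, and cannot be told apart from the line. The log2 ratio of mir-27b to mir-24-1 differed by -0.28 and that of mir-27a to mir-24-2 by -0.14 in K562, the latter opposite in sign to HEK293E.

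Relatives and neighbours of the members were read as well. miR-23c shares the miR-23 seed, and its hairpin had at most 13 counts in any library and was not tested. miR-128-3p shares the 8-base run ucacagug with miR-27a-3p, 1 position out of register. Its hairpins mir-128-1 and mir-128-2, which are near copies of each other, were at -0.08 and -0.07 and not called (edgeR adjusted p = 0.712 and 0.743). mir-3074, encoded on the opposite strand over mir-24-1, held 105 to 206 counts in HEK293E and was at -0.02 (edgeR adjusted p = 0.952). Of the 3 listed hairpins on the chromosome arm of the a cluster, mir-181c was called lower at -1.11 ± 0.18 (SE; edgeR adjusted p = 0.00108) and mir-181d at -1.47 ± 0.15 (SE; edgeR adjusted p = 8.02e-05), and mir-639 was too low to test. No member of the a cluster was called lower.

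Over the 7 HEK293E libraries the Pearson r of log2 CPM between neighbours was 0.976 for mir-23a and mir-27a, 0.412 for mir-27a and mir-24-2, 0.466 for mir-23b and mir-27b and 0.782 for mir-27b and mir-24-1. Between copies it was 0.847 for miR-23 and -0.21 for miR-27, so neither neighbours nor copies ran together as a class. The miR-24 copies gave 0.998, but they share reads and are read as 1 measurement. The neighbour values with miR-24 use that same measurement. Among 291 other hairpins that averaged 100 CPM or more, the closest to mir-23a was mir-195 (r = 0.994), to mir-27a mir-590 (r = 0.993), to mir-23b mir-148b (r = 0.994), to mir-27b mir-19a (r = 0.991), and to both miR-24 copies mir-18a (r = 0.978 and 0.983). These coefficients describe 7 libraries that share their scaling and their replicate structure.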

How the data were processed

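Small RNAs of 18 to 30 nt from 9 libraries were sequenced. The authors deposited raw counts per hairpin, in which 2336 blank cells were read as 0, and RPM values, which recomputation showed to be the count plus 1 over the library total plus 1485, per 1e+06 (largest relative difference 1.1e-09). cutadapt, Bowtie2, bedtools and hg38 are named, without versions, per the submitters' processing notes. Spike-in RNAs were not used here, so levels are relative to other hairpins.

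Hairpins averaging 10 counts or more were fitted in edgeR 4.0.16 (R 4.3.3) with TMM scaling and the quasi-likelihood test. Alternatives used library totals, DESeq2 1.42.0, limma 3.58.1 on log2 of the deposited RPM plus 1 or 10, other count filters, a replicate block, a GC trend removed and single libraries left out. On simulated counts of 773 hairpins edgeR called 146 of 200 changed 2-fold and 199 of 200 changed 4-fold, and 1 when none changed. In HEK293E, replicate numbers match the experimental group in the labels. Deviations of same-numbered HEK293E libraries correlated at 0.519, 0.692 and 0.48 between siRNAs, so the numbers pair these libraries. Ratios were of raw counts. A floor of 3 counts is 0.904 to 1.15 RPM; floors and Wilson intervals cover counting error only, since collapsing of reads by molecule is not given in the sources used here.

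Coordinates of 1480 of 1485 hairpins came from GENCODE release 29, sequences from RefSeq (GRCh38.p14), and folding energies from RNAfold 2.7.2. The named hairpins are the members, fixed lists (seed relatives, antisense neighbour, chromosome arm neighbours, cell line markers) and those closest in pattern to each member. Members and lists were chosen with earlier results of these data known. Scripts ran in Python 3.11.15 with pandas 2.3.3, matplotlib 3.10.9, numpy 2.4.6 and scipy 1.17.1.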

Additional observations from a re-analysis of the deposited data

Results flagged for a closer look

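The log2 ratio of mir-27b to mir-24-1 in the siGFP library of replicate 2 was 0.0641, apart from the other 3 controls at 0.19 to 0.20. It was the only one of 15 sets of 4 control values with such a gap, and chance gives about 1 in 20. A pair of ratios whose HEK293E arms were apart went the other way in K562: mir-27a to mir-24-2 changed by -0.14 in K562 and 0.51 in HEK293E, and mir-24-1 to mir-24-2 by 0.0075 and -0.019. These differences between lines were not tested. As mir-24-1 and mir-24-2 share reads and are read as 1 measurement, the sign of their change in K562 is not taken as a direction.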

How the results depend on the processing

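The difference between siERH and control in the ratio of the copies kept its direction, for miR-23 and for miR-27, in every alternative run. For mir-23a to mir-23b it was 0.71 to 0.86 with single libraries left out and 0.68 within replicate 1, and for mir-27a to mir-27b 0.85 to 0.99 with single libraries left out. The ratio of mir-23b to mir-24-1 reversed, to -0.060 with the replicate block, -0.044 with the block and the GC trend removed and -0.48 within replicate 2, and ran from -0.21 to 0.33 with single libraries left out. Within replicate 2, mir-23a to mir-27a reversed to -0.10 and mir-23b to mir-27b to -0.088. With single libraries left out, mir-23a to mir-27a ran from 0.077 to 0.53, mir-23b to mir-27b from 0.17 to 0.71 and mir-23a to mir-24-2 from 0.53 to 1.13, and the log2 fold change of mir-23a from 0.19 to 0.83. The cause was not tested.

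The main siERH comparison called 125 hairpins lower and 184 higher. Library totals called 67 lower and 212 higher, and limma 66 and 213 (RPM plus 1) and 63 and 220 (RPM plus 10). Each of these fits had 1 member among those called higher. On totals 24% of calls were lower, against 40.5%. Testing only hairpins of at least 100 CPM called 45 and 37, from fewer hairpins. Within replicate 2, 2 members were lower, where 99 of all hairpins were called lower and 182 higher. The block with the GC trend removed called 2 members higher, where 218 of all hairpins were called higher. With single libraries left out, 76 to 130 were lower and 0 to 1 members. mir-24-2 reversed to 0.03 on totals, 0.04 with limma and 0.01 with the GC trend removed, mir-24-1 to 0.01 on totals and 0.02 with limma, and mir-23b to 0.09 with limma and 0.02 without the siControl library of replicate 2 (-0.57 to 0.02 with single libraries left out). For siERH-3 alone (87 lower, 145 higher), totals gave 48 lower, limma 47 and 48, the 100 CPM filter 33 and 28, and the block 142 lower. The block and DESeq2 each called 1 member lower, and single libraries left out gave 19 to 102 lower, 42 to 152 higher and 0 to 1 members lower. siControl against siGFP went from 0 and 0 to 2 and 2 with DESeq2, 2 and 2 with no filter and 61 and 72 with the block, with 2 members higher, and to 0 to 1 higher with single libraries left out. There mir-23a reversed to -0.15 without the siGFP library of replicate 1 and -0.42 without the siControl library of replicate 2, in a range up to 1.65, and mir-23b to -0.23 and -0.46, in a range up to 1.49. The replicate block changed no other call of a member.

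In K562, siERH-5 over siGFP was 0.15, 0.08, 0.22, -0.09, -0.06 and 0.23 on library totals and -0.02, -0.09, 0.04, -0.26, -0.23 and 0.05 on TMM of hairpins of at least 100 CPM, for mir-23a, mir-27a, mir-24-2, mir-23b, mir-27b and mir-24-1. The log2 of K562 over HEK293E, for the same order, was 4.03, 3.62, 1.76, 0.62, 0.48 and 1.68 on TMM and 3.02, 2.57, 0.70, -0.39, -0.58 and 0.62 both on library totals and on the deposited RPM. Depth was not limiting for the members, which had at least 1253 counts.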
